A study of Mus musculus with 24 samples.

Results

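The genes described here are 10 genes of the cardiac sarcomere, the contractile unit of heart muscle, measured in mouse embryonic stem cells (ESCs) that lack the Polycomb protein EED and in wild-type ESCs. They are Actc1, Tnni1, Tnnt2, Tnnc1, Myl4, Myl7, Myh6, Myh7, Ttn and Actn2. They were chosen by gene symbol, and each had 1 probe set that the platform annotation gave to that symbol alone. These genes and the lists read below were chosen with earlier results of these data known. Counts set beside shares of all genes are therefore a description and not a test. They are 10 of the 19938 genes measured this way on 24 Affymetrix Mouse Gene 1.0 ST arrays. EED is a core subunit of PRC2, the complex that methylates lysine 27 of histone H3, and the study asked which genes need EED as ESCs differentiate. Knockout (KO) cells of Eed came from 2 lines, E14 and J1. The wild-type (WT) cells came from J1 and V6.5. Each line of a genotype was measured on days 0, 3 and 7 with 2 arrays a day, which gave 4 arrays for each genotype and day. Day 0 cells of both genotypes were undifferentiated ESCs grown with LIF, a cytokine that holds them in that state, on inactivated embryonic fibroblasts. Cells of days 3 and 7 were embryoid bodies (EBs), balls of differentiating cells formed without LIF from ESCs depleted of the fibroblasts, first in hanging drops and then in suspension. EBs are mixtures of cell types and were not sorted for heart muscle. J1 is the only line present in both genotypes, so genotype and line are partly mixed. How the Eed allele was inactivated, and whether a KO line is 1 clone, is not given in the sources used here.

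Values are log2 expression values, so a difference of 1 is 2-fold. Genes are called changed where limma gave a difference of at least 2-fold and a p-value, adjusted over all 19938 genes by the Benjamini-Hochberg method, under 0.05. Nothing in the labels tells whether arrays of 1 line and day had their own cultures, so the p-values rest on a spread that may be technical. Each genotype had 2 lines, and the fit used 1 correlation between arrays of a line for all genes. The genotype p-values may therefore understate how far lines differ in a given gene. Probe sets differ in their probes, so levels are compared between samples and never between genes, and differences near the array background are compressed. Eed itself lay between 5.76 and 7.48 in the 12 KO arrays, against 9.37 to 11.02 in the 12 WT arrays. The groups did not overlap, as the labels say, although the part of Eed read by its probes is not known here.

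A sarcomere is built from thin filaments of actin and thick filaments of myosin that slide past each other. On the thin filament, troponin C binds calcium, troponin I holds contraction off and troponin T anchors the complex to tropomyosin. Myosin carries heavy chains, which are the motors, and light chains, which stiffen and tune them. Titin spans the unit as a spring, and alpha-actinin ties thin filaments together at the Z-disc. In ESC cultures beating heart muscle forms in EBs from mesoderm, and the genes of the sarcomere are late markers of that step.

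The sequence just before the start of a gene is where many heart muscle regulators bind. RefSeq promoter windows of assembly GRCm38.p6, which run from 250 bases before to 50 bases after the annotated start, were found for all 10 genes, with 13 windows in all because Tnni1, Tnnt2 and Myh7 have 2 starts. The 150 bases before the start are shown for the 4 genes that were lower in KO EBs on day 7 (1 start each) and for Myl7, which shares a motif with Actc1. Capitals mark the CArG box, to which serum response factor binds, and the MCAT motif CATTCC in either strand, to which TEAD factors bind.
Actc1, chr2:114052876-114053025, minus strand: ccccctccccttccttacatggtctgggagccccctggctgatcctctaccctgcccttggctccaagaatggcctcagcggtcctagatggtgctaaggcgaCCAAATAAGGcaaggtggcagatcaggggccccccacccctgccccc
Tnni1, chr1:135799271-135799420, plus strand: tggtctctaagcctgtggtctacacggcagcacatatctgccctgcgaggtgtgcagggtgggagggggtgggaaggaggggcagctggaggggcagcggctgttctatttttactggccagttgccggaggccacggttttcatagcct
Tnnt2, chr1:135836184-135836333, plus strand: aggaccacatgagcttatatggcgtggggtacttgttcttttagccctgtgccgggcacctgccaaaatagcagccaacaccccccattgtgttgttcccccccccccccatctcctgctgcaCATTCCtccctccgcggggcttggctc
Tnnc1, chr14:31208162-31208311, plus strand: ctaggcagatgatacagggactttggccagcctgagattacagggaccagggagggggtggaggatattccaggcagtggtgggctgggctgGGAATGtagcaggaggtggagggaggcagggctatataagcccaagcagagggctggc
Myl7, chr11:5898783-5898932, minus strand: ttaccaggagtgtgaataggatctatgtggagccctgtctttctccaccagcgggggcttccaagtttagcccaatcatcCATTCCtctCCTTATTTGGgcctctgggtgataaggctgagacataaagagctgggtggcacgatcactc

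With the base before the start as -1, the CArG box of Actc1 covered -47 to -38 and that of Myl7 covered -61 to -52. These were the only CArG boxes among the 13 windows, and 1.63% of all 32851 windows in the table held one. The MCAT motif was in 6 of the 13 windows, 1 each of Tnnt2, Tnnc1, Myl7, Myh6, Myh7 and Ttn, and in 14.66% of all windows. A MEF2 site, the motif of a factor family that activates muscle genes, was found in the Ttn window alone, against 3.19% of all windows. The GATA motif AGATAA was in 1 window, of Tnnt2, against 11.2% of all. TATAAA was in the windows of Actc1 and Myh6, at or after the annotated start in both, and in 13.6% of all windows. The E-box CANNTG was in 12 of the 13, all but that of Myl4, and in 72.3% of all. Both strands were searched, and a CArG box and a MEF2 site can overlap. The windows were poor in CpG: the observed over expected CpG ratio had a median of 0.232, against 0.384 over all windows. Myl4, at 0.886, and Actn2, at 0.606, had the highest ratios of the 13. A match here is a string of letters and not evidence of binding.

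One pair of arrays stood apart and bears on most results below. On day 7 the 2 arrays of WT J1 correlated at r = 0.962 across genes and differed at least 2-fold in 1256 genes, whereas the other 11 pairs of arrays correlated at 0.990 to 0.995 and differed in 21 to 163 genes. Array 1 of that pair was the lowest of the 4 WT day 7 arrays for 9 of the 10 sarcomere genes, all but Actn2, and for 23.9% of all genes. Of the 10 genes, 6 differed at least 2-fold within the pair, with array 2 above array 1 by 3.15 for Myl4, 2.26 for Myl7, 2.16 for Tnnt2, 1.81 for Tnnc1, 1.72 for Actc1 and 1.37 for Tnni1. Which of the 2 arrays was the unusual one over all genes was not tested. Nothing in the labels separates the arrays, so both were kept, and calls that change without one of them are given beside the results.

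With all arrays kept, those of the 10 genes that were called between the genotypes were all genes of the thin filament. Myl4, of the thick filament, was also called without the first WT J1 array of day 7. Tnni3, a thin filament gene outside the 10, was not called. Differences are given as KO minus WT with their sign. Actc1, Tnni1, Tnnt2 and Tnnc1 were called lower in KO than in WT EBs on day 7, which is 4 of the 10 genes, where 1.28% of all genes were called lower. None of the 10 was called in KO against WT on day 0, where 0.552% of all genes were called in either direction, or on day 3, where 0.757% were. In these bulk samples, fewer cells that make the RNA and less of the RNA in each such cell cannot be told apart. Which cell types of the EBs made it, heart muscle or others, was not tested.

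Actc1 encodes cardiac alpha-actin, the actin of the thin filament. On day 7 it read 7.69 and 8.16 in KO E14 and 7.89 and 8.13 in KO J1, against 8.83 and 10.55 in WT J1 and 10.06 and 9.48 in WT V6.5. Every KO array lay below every WT array. The difference was -1.77 (SE 0.29, adjusted p = 0.000137). On day 3 the same gene read 8.62 and 8.50 in KO E14 and 8.47 and 8.41 in KO J1, against 8.71 and 8.97 in WT J1 and 8.61 and 8.45 in WT V6.5, and on day 0 it ranged from 7.83 to 8.25 in KO and from 7.77 to 8.98 in WT cells. The genotypes overlapped on both of those days. In KO cells every day 7 array lay below every day 3 array, but the difference of -0.53 did not pass the limma test (adjusted p = 0.176). Actins are nearly identical in sequence, and how far the probes of Actc1 also read Acta2, the smooth muscle actin, was not tested. Acta2 read 7.79 and 7.53 in KO E14 and 9.30 and 9.54 in KO J1 on day 7, against 10.17 and 12.08 in WT J1 and 12.63 and 12.25 in WT V6.5. On day 0 it was higher in all 4 KO arrays, at 9.75 to 11.33, than in the WT arrays, at 8.34 to 9.17, while Actc1 overlapped between the genotypes. The share of all genes that separate on day 0, or between days 3 and 7 in KO cells, was not counted.

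Tnni1 encodes slow skeletal troponin I, the form of troponin I that the embryonic heart uses before Tnni3 takes over. Day 7 values were 6.85 and 7.22 in KO E14 and 6.93 and 7.03 in KO J1, against 7.40 and 8.77 in WT J1 and 10.91 and 9.54 in WT V6.5. The KO arrays stayed within the range of the 16 arrays of days 0 and 3, 6.74 to 7.11, except for the second KO E14 array, and all WT arrays lay above it. The difference of -2.15 (SE 0.42, adjusted p = 0.000847) had the largest size of the 10 over all arrays, but it was -1.08 without the WT V6.5 arrays. It was the gene on which the WT lines differed most, with V6.5 above J1 by 2.14.

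Tnnt2 encodes cardiac troponin T, a standard marker of heart muscle cells in differentiating cultures. It read 7.53 and 7.23 in KO E14 and 7.58 and 7.44 in KO J1 on day 7, against 7.51 and 9.67 in WT J1 and 9.56 and 8.997 in WT V6.5. The second WT J1 array and both WT V6.5 arrays were above all KO arrays, and the first WT J1 array lay among the KO arrays. The difference was -1.49 (SE 0.33, adjusted p = 0.00295). The call was lost without the KO E14 arrays (adjusted p = 0.0594) and without the WT V6.5 arrays (adjusted p = 0.0524). It was kept without the first WT J1 array of day 7.

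Tnnc1 encodes the calcium-binding troponin C of heart and slow skeletal muscle. Values on day 7 were 6.76 and 6.92 in KO E14 and 6.52 and 6.40 in KO J1, against 7.10 and 8.91 in WT J1 and 8.82 and 7.92 in WT V6.5. As for Actc1 and Tnni1, no KO array reached the lowest WT array. The difference was -1.53 (SE 0.29, adjusted p = 0.000666).

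**Figure D1:**
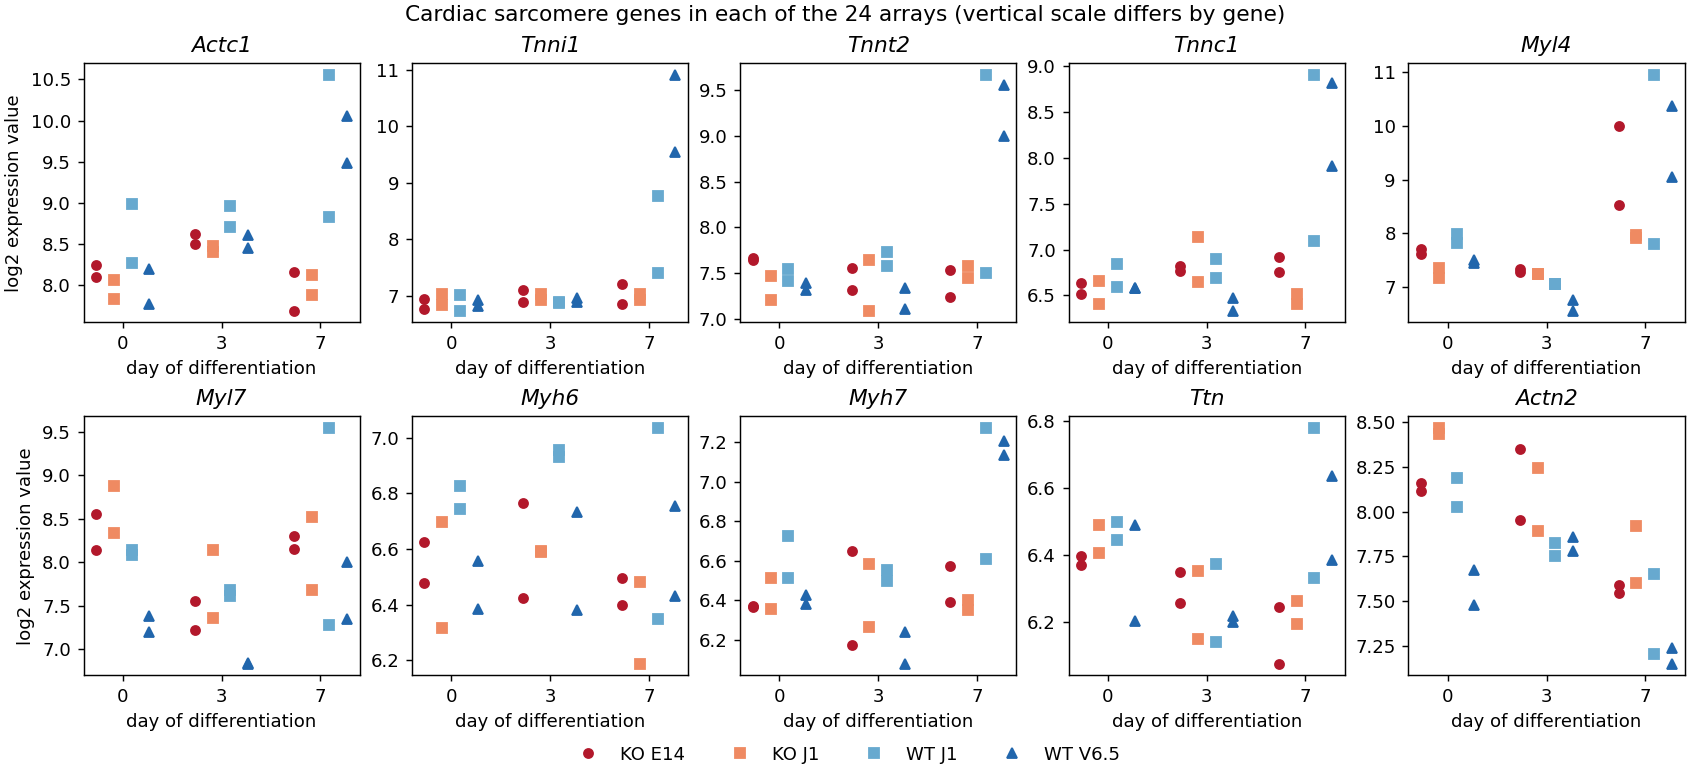
Log2 expression value (vertical axis, scale set for each gene) of the 10 genes against day of differentiation, 1 point per array, with KO E14 and KO J1 left of WT J1 and WT V6.5 within each day. On day 7 the WT V6.5 arrays and 1 WT J1 array rise above the others for Actc1, Tnni1, Tnnt2 and Tnnc1, and the other WT J1 array does not follow them.

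Neither of the light chain genes was called. Myl4 encodes the atrial essential light chain, which is made throughout the embryonic heart. On day 7 it read 8.52 and 10.01 in KO E14 and 7.91 and 7.97 in KO J1, against 7.81 and 10.96 in WT J1 and 10.38 and 9.05 in WT V6.5. The groups overlapped, with the second KO E14 array above 2 of the WT arrays and the first WT J1 array below all KO arrays. The difference of -0.95 (SE 0.51, adjusted p = 0.242) did not pass the test. It was -1.58 and called without the first WT J1 array of day 7 (adjusted p = 0.00525).

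Myl7 encodes the atrial regulatory light chain and marks atrial and early heart tube muscle. Its day 7 values were 8.30 and 8.15 in KO E14 and 7.68 and 8.52 in KO J1, against 7.28 and 9.55 in WT J1 and 8.01 and 7.35 in WT V6.5. The KO arrays lay inside the WT range, and the difference was 0.12 (95% confidence interval -0.68 to 0.91). Myl7 was also read at 8.08 to 8.87 in 6 of the 8 day 0 arrays, of KO E14, KO J1 and WT J1, and at 7.20 and 7.38 in WT V6.5. The day 0 difference of 0.77 did not pass the test (adjusted p = 0.41), and without the WT J1 arrays, so against V6.5 alone, it was 1.19 and was called (adjusted p = 0.0148). Line and genotype cannot be told apart in that value.

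The heavy chain genes and Ttn had small differences on day 7. Their probe sets read low, with means over all arrays of 6.53 for Myh7, 6.59 for Myh6 and 6.34 for Ttn. The differences may therefore be compressed, and how near the values lie to the array background was not tested. Myh7, the beta heavy chain of slow and embryonic ventricular muscle, read 6.57 and 6.39 in KO E14 and 6.40 and 6.35 in KO J1, against 6.61 and 7.27 in WT J1 and 7.20 and 7.13 in WT V6.5. Its difference of -0.63 (adjusted p = 0.0073) was under 2-fold. Ttn, which encodes titin, read 6.25 and 6.08 in KO E14 and 6.26 and 6.19 in KO J1, against 6.33 and 6.78 in WT J1 and 6.64 and 6.39 in WT V6.5, a difference of -0.34 (adjusted p = 0.0403), also under 2-fold. In both genes all KO arrays lay below all WT arrays by a narrow margin, and Ttn had the lowest mean of the 10 over all arrays, in the lowest 30% of genes. Myh6, the alpha heavy chain, which in the mouse embryo is made mainly in the atria, read 6.40 and 6.496 in KO E14 and 6.48 and 6.19 in KO J1, against 6.35 and 7.03 in WT J1 and 6.76 and 6.43 in WT V6.5, and its difference of -0.25 did not pass (adjusted p = 0.337). Myh6 and Myh7 are neighbours on chromosome 14 and close copies of each other, so some probes may read both.

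Actn2, which encodes the alpha-actinin of the Z-disc, had a difference above 0. It read 7.59 and 7.54 in KO E14 and 7.60 and 7.92 in KO J1 on day 7, against 7.65 and 7.20 in WT J1 and 7.24 and 7.15 in WT V6.5. The difference of 0.35 did not pass (adjusted p = 0.143), and the first WT J1 array lay among the KO arrays. Its levels before day 7 were mostly higher. They lay at 8.12 to 8.47 in KO and 7.48 to 8.19 in WT arrays on day 0, and at 7.89 to 8.35 in KO and 7.75 to 7.86 in WT arrays on day 3.

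Counting arrays rather than fitting a model gave 5 genes with all 4 KO arrays below all 4 WT arrays on day 7, namely Actc1, Tnni1, Tnnc1, Myh7 and Ttn, where 7.13% of all genes did. The median difference of the 10 genes was -0.79, against -0.04 over all genes, and 8 of the 10 differences were negative. On days 0 and 3 the medians of the 10 were -0.04 and 0.08.

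**Figure D2:**
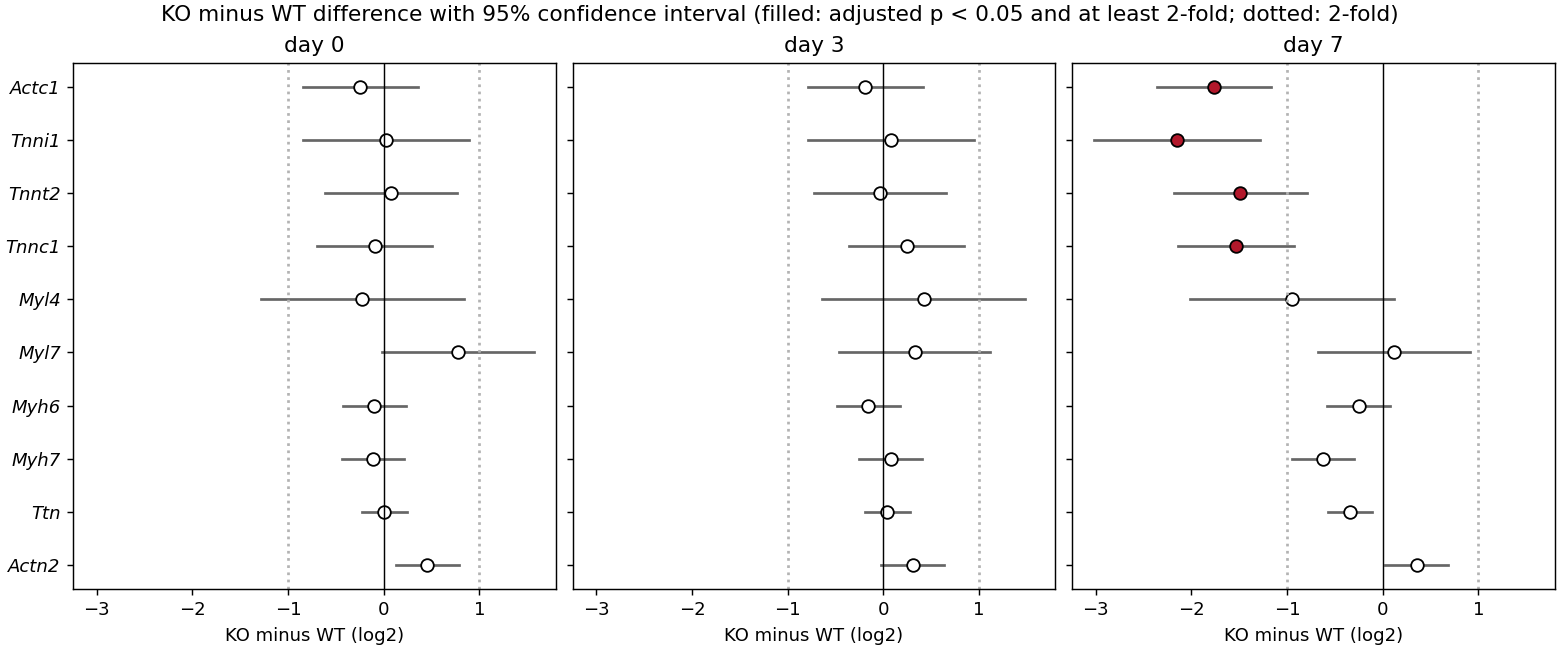
KO minus WT difference on the log2 scale (horizontal axis) with its 95% confidence interval for each of the 10 genes on days 0, 3 and 7, from limma. Filled points passed an adjusted p of 0.05 and 2-fold (dotted lines), and only Actc1, Tnni1, Tnnt2 and Tnnc1 on day 7 are filled.

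The rise in WT cells took place after day 3. From day 0 to day 3 none of the 10 genes was called in WT cells, where 2.04% of all genes were called in either direction. On day 7 against day 3, 5 of the 10 were called higher in WT cells, where 3.78% of all genes were: Myl4 by 2.69, Tnni1 by 2.25, Tnnc1 by 1.58, Tnnt2 by 1.495 and Actc1 by 1.05 (SE 0.25 to 0.44, adjusted p = 2.83e-05 to 0.00199). Against day 0 the same 5 were called higher, by 1.86, 2.28, 1.54, 1.51 and 1.43 in that order, where 5.09% of all genes were. Myh7 was higher by 0.71 than on day 3 (adjusted p = 0.000217), under 2-fold. Actn2 was lower at -0.49 (adjusted p = 0.00687), also under 2-fold.

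These calls leaned on the V6.5 line and on 1 J1 array. Without the WT V6.5 arrays, the day 7 minus day 3 calls of Actc1 (0.85, adjusted p = 0.142) and Tnnt2 (0.93, adjusted p = 0.168) were lost, as were the day 7 minus day 0 calls of Myl4 (1.48, adjusted p = 0.144) and Tnnt2 (1.11, adjusted p = 0.0666). Actc1 also fell under 2-fold from day 3 without the WT J1 arrays numbered 2 (0.87), without the day 7 one of them alone (0.78) and without the WT V6.5 arrays numbered 1 (0.91). Myl7 was called higher on day 7 than on day 3 as well without the first WT J1 array of day 7, by 1.15 (adjusted p = 0.00391). Without both WT J1 arrays of each day, Myh7 was, by 1.01.

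In KO cells none of the 10 genes was called between any of the days, where 1.17% of all genes were called in either direction from day 0 to day 3, 2% from day 3 to day 7 and 2.47% from day 0 to day 7. Tnni1, Tnnt2 and Tnnc1 differed by 0.02, 0.04 and -0.19 between day 7 and day 3, and Actc1 at -0.53 (adjusted p = 0.176). Myl4 was the gene that came nearest, with 1.32 over day 3 (SE 0.44, adjusted p = 0.0549) and 1.14 over day 0 (adjusted p = 0.0804). Both passed without the first WT J1 array of day 7 (adjusted p = 0.00476 and 0.01), and without the second they did too (0.0209 and 0.0341). The differences themselves were the same in these fits. The SE over day 3 was 0.31 without the first and 0.37 without the second, as all groups share 1 spread. Actn2 was lower on day 7 than on day 0 at -0.63 (adjusted p = 0.00195), under 2-fold.

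Whether the change itself differed between the genotypes was tested as an interaction of genotype with day. From day 0 to day 7, 4 of the 10 genes changed less upward in KO than in WT cells, at -2.17 for Tnni1, -1.57 for Tnnt2, -1.52 for Actc1 and -1.44 for Tnnc1 (SE 0.35 to 0.50, adjusted p = 0.007 to 0.016), where 1.45% of all genes were called lower. From day 3 to day 7 the same 4 were called, at -2.23, -1.45, -1.58 and -1.78 in that order (adjusted p = 0.003 to 0.0338), where 1.2% of all genes were. The interaction of Myl4, -1.37 from day 3 to day 7, did not pass (adjusted p = 0.239) and passed without the first WT J1 array of day 7 (-2.01, adjusted p = 0.00456), as did that from day 0 (-1.36, adjusted p = 0.0468). Without the second WT J1 array of day 7, the Tnnt2 interaction from day 3 was lost (-1.19, adjusted p = 0.071). The 4 calls from day 0 to day 7 were all lost when any of KO E14, KO J1 or WT V6.5 was left out (adjusted p = 0.0690 to 0.292). From day 3 to day 7 they were all lost without KO J1 or WT V6.5, and Tnnc1 was the only call left without KO E14.

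**Figure D3:**
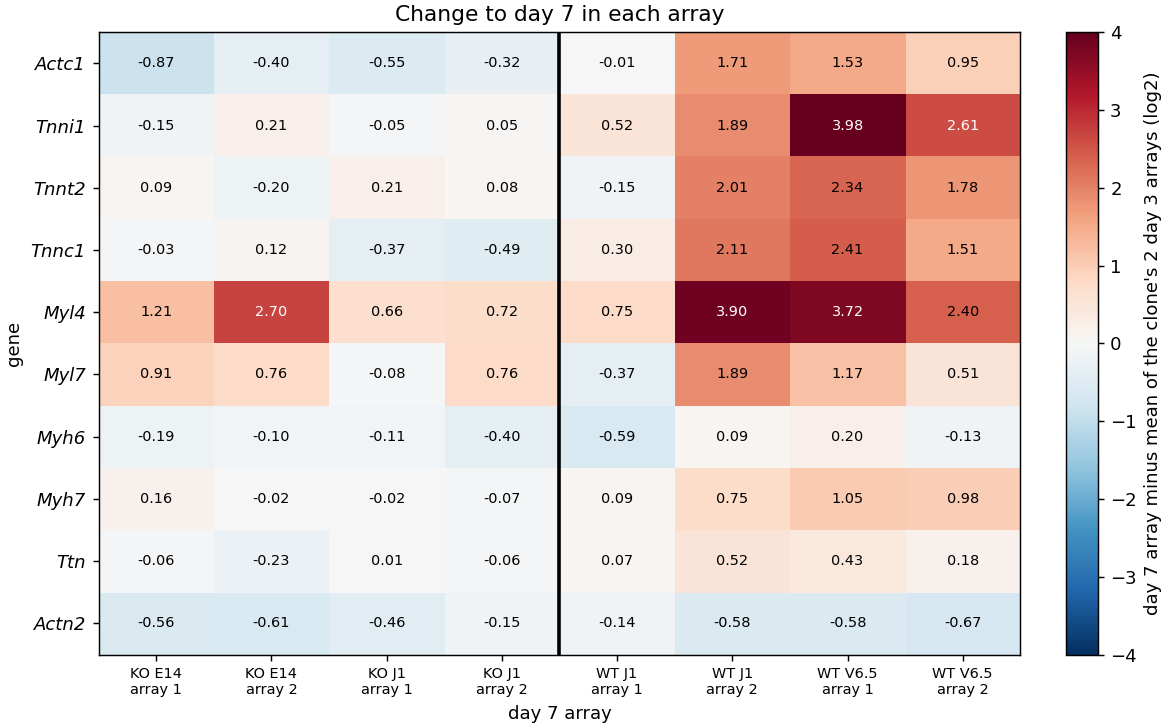
Each cell gives 1 day 7 array minus the mean of the 2 day 3 arrays of the same line and genotype, on the log2 scale, with genes down the page and KO arrays left of WT arrays. Tnni1, Tnnt2 and Tnnc1 are between -0.49 and 0.21 in the 4 KO arrays and between 1.51 and 3.98 in 3 of the 4 WT arrays. In the first WT J1 array they are between -0.15 and 0.52. Myl4 is above 0 in all 8 arrays, from 0.66 in a KO J1 array to 3.90 in the second WT J1 array.

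The lines were then compared with each other, with 2 arrays a group and the spread pooled over 12 groups. In J1, the only line with both genotypes, 3 of the 10 genes were called lower in KO than in WT EBs on day 7, Actc1 at -1.69 (adjusted p = 0.00456), Tnnc1 at -1.54 (adjusted p = 0.00939) and Tnni1 at -1.10 (adjusted p = 0.0426), where 1.38% of all genes were. Those calls depend on the WT J1 pair: without its first day 7 array 6 genes were called lower, with Myl4 at -3.02, Tnnt2 at -2.16 and Myl7 at -1.45 added, and without its second array none was, with Actc1 at -0.83, Tnnc1 at -0.64 and Tnni1 at -0.42. No call was left either when the KO J1 arrays of one number were left out (adjusted p = 0.0502 or higher).

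KO E14 set against WT V6.5, which differ in line and genotype at once, gave 4 genes called lower, Tnni1 at -3.19, Tnnt2 at -1.90, Actc1 at -1.84 and Tnnc1 at -1.53 (adjusted p = 2.83e-06 to 0.00606), where 2.2% of all genes were called lower. Without the WT V6.5 arrays numbered 1, Tnnt2 (adjusted p = 0.0715) and Tnnc1 (adjusted p = 0.175) were lost, and Tnnc1 was also lost without the KO E14 arrays numbered 1 (adjusted p = 0.0808). Between the WT lines, Tnni1 was the only gene called higher, in V6.5 over J1 by 2.14 (adjusted p = 0.00206), where 0.592% of all genes were. That call was lost without the V6.5 arrays numbered 1 (1.46, adjusted p = 0.0779). Without the first WT J1 day 7 array Myl7 was called lower in V6.5, at -1.87, and without the second, Myl4 (1.91), Tnnt2 (1.77) and Tnnc1 (1.27) were called higher in V6.5. Between the KO lines none of the 10 was called, where 0.998% of all genes were in either direction. Myl4 was 1.33 higher in KO E14 than in KO J1 (95% interval 0.01 to 2.65, adjusted p = 0.344), and without either of the WT J1 day 7 arrays that difference was called (adjusted p = 0.0233).

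Across the 24 arrays the 10 genes did not form 1 block. The Pearson correlation of a gene with the mean of the other 9 was 0.94 for Tnnc1, 0.93 for Tnnt2, 0.88 for Myh7, 0.80 for Tnni1, 0.78 for Actc1 and for Myl4 and 0.70 for Ttn. It was 0.37 for Myl7, 0.36 for Myh6 and -0.61 for Actn2. These values describe 24 arrays that share lines and days, and the mean of the 10 genes was 8.67, 8.56 and 7.94 in 3 WT day 7 arrays and between 6.93 and 7.42 in all others. The 6 genes of the array most like that mean were Spns2 (r = 0.955), P2rx1 (0.954), Tspan32 (0.953), Ccrl2 (0.952), Tac2 (0.951) and Trim10 (0.943). Spns2, which exports the lipid signal sphingosine-1-phosphate, read 7.52 and 7.44 in KO E14 and 7.28 and 7.15 in KO J1 on day 7, against 7.82 and 9.46 in WT J1 and 8.98 and 8.39 in WT V6.5. Its order over the WT arrays, with the first WT J1 array lowest and the second highest, was that of 8 of the 10 genes, all but Tnni1 and Actn2. The order is not particular to these genes. The means of the endothelial, erythroid, fibroblast and endoderm markers read below had the same order. The 6 genes are not in any of the muscle or marker lists used here. Tnni1 and Tnnt2 lie near each other on chromosome 1 with 1 coding gene, Lad1, between them in RefSeq.

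Other genes of heart muscle were read from lists given here by count, beside the background that 4.36% of all genes were called in either direction in KO against WT on day 7 and 8.98% in WT on day 7 against day 0. Of 43 other sarcomere and striated muscle genes, 1 was lower and none higher in KO EBs on day 7, Nexn at -1.24 (adjusted p = 0.0258), which encodes an actin-binding protein of the Z-disc. Their median difference was -0.16. In WT cells between day 0 and day 7, 3 rose, Nexn by 1.37 and the tropomyosins Tpm1 by 1.23 and Tpm4 by 1.15, and Actn3 fell, with a difference of -1.59. Without the first WT J1 array of day 7, 3 of the 43 were called lower in KO EBs, with Myom1 (-1.14), of the M-band, and Des (-1.11), which encodes the intermediate filament desmin, added. Over all 19938 genes, 255 were called lower with all arrays, 414 without that array and 229 without the second. Called higher were 615, 667 and 639 in that order. List counts without 1 of these arrays, here and below, stand beside those numbers.

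A further 10 markers of heart muscle were checked singly, some of which also belong to the lists given here by count: Nkx2-5, Tbx5, Myl2, Myl3, Tnni3, Pln, Ryr2, Nppa, Nppb and Mybpc3. None was called in KO against WT on day 7 or in WT on day 7 against day 0. Tbx5 and Myl3 were nearest in WT cells, higher on day 7 by 0.89 (adjusted p = 0.000105) and 0.83 (adjusted p = 0.000702), both under 2-fold. Nkx2-5, an early heart regulator, differed by 0.11 in WT cells (adjusted p = 0.494), and Myl2, the ventricular light chain, at -0.13 (adjusted p = 0.34).

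Transcription regulators of the heart were lower in KO EBs as well. Of 27 cardiac transcription regulators, 8 were lower and none higher in KO EBs on day 7: Tbx20 at -2.80, Hand1 at -2.56, Hey2 at -1.78 and Mef2c at -1.58 (adjusted p = 6.67e-12 to 0.000359), and Hand2, Smarcd3, Gata5 and Foxh1 at -1.40 to -1.01. Tbx20, a T-box factor that the growing heart needs, averaged 7.68 ± 0.15 in KO EBs and 10.47 ± 0.82 in WT EBs (SD, n = 4 each). The count was also 8 without either of the WT J1 day 7 arrays, but without the first it held Gata6 (-1.31, adjusted p = 0.00676) and not Foxh1 (-0.91, adjusted p = 0.0608). In WT cells 12 of the 27 rose between day 0 and day 7, with Tbx20 by 4.01, Hand1 by 3.92, Gata6 by 3.64 and Hey2 by 2.28. On day 0, 1 of the 27 was higher in KO cells, and on day 3, 2 were.

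The remaining muscle lists gave few calls. Of 21 genes of calcium handling and conduction, 2 were lower in KO EBs on day 7, the potassium channel gene Kcnj5 at -1.14 and the pacemaker channel gene Hcn4 at -1.03, and none was higher. Without the first WT J1 array of day 7, 3 were lower and 1 higher, with Trdn (-1.08), a protein of the calcium release unit, and the calcium channel gene Cacna1g (1.15) added, and without the second 1 was lower, as Kcnj5 was under 2-fold (-0.84). Of 12 genes of sarcomere assembly and turnover, 1 was called, the small heat shock protein gene Hspb1, higher in KO EBs by 2.62, which also fell in WT cells (-1.92) while Bves, a membrane protein gene of heart muscle, rose by 1.52. Of 5 natriuretic peptides and secreted factors, Bmp5 was lower at -2.33. Bmp5 in WT cells rose by 4.62 and Bmp7 by 1.36.

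Genes of other muscle types and cytoplasmic paralogs of the 10 genes were read the same way. Of 9 smooth muscle genes, Acta2 was lower in KO EBs at -3.24 and Myl9 at -1.21, and Acta2 rose in WT cells by 2.90. Of 10 skeletal myogenic genes, the fast light chain gene Mylpf was higher in KO EBs by 1.42 and fell in WT cells (-1.32), and the other 9 were not called. Of 8 cytoplasmic paralogs, none was called in KO against WT, where Myh10 (-0.72) and Actn4 (0.51) had the largest differences, and Myh10 rose in WT cells by 1.42.

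Markers of other cell types moved on day 7 too, and their part in the sarcomere result was not tested. All 10 markers of undifferentiated ESCs were higher in KO EBs, with Dppa5a by 4.27, Zfp42 by 4.10, Esrrb by 3.57 and Nanog by 3.56, and the mean of the 10 was 10.98 to 11.60 in KO against 7.77 to 8.45 in WT arrays. Those of them that fell most in WT cells were Zfp42 (-4.39), Utf1 (-4.29), Esrrb (-4.12) and Tdgf1 (-3.81). All 5 markers of primitive erythroid cells measured were lower in KO EBs, with Hbb-bh1 at -7.40, Hbb-y at -6.61, Hba-x at -5.79 and Alas2 at -3.66, and their mean was 5.61 to 6.46 in KO against 10.30 to 11.85 in WT arrays.

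The endothelial markers split by line among KO cells. Of 7 endothelial markers, Kdr was lower in KO EBs at -2.23 and Tie1 at -1.16, and the mean of the 7 was 6.75 and 7.44 in KO E14 and 9.06 and 8.56 in KO J1, against 7.27 and 9.67 in WT J1 and 9.48 and 8.93 in WT V6.5. KO J1 thus overlapped with WT V6.5 in the mean of these markers. Without the first WT J1 array of day 7, 4 of the 7 were lower in KO EBs, with Cdh5 (-2.29) and Tek (-2.04) added, and without the second 1 was, as Tie1 lost its call (-0.97, adjusted p = 0.0987). The number called lower over all genes moved as well, from 255 to 414 without the first and to 229 without the second. In WT cells Cdh5 rose by 3.76, Kdr by 3.51, Emcn by 2.90 and Tie1 by 1.77. Of 12 markers of fibroblasts, such as the feeder layer, Postn (-2.25), Col1a1 (-1.65) and Col1a2 (-1.20) were lower in KO EBs on day 7. Without the first WT J1 array of day 7, 5 of the 12 were, with Lum (-2.95) and Col3a1 (-1.11) added, and without the second 2 were, as Postn lost its call (-1.66, adjusted p = 0.118). The mean of the 12 was 7.71 to 8.27 in KO against 7.59 to 9.11 in WT arrays. Postn rose in WT cells by 3.88, Lum by 2.91, Pdgfrb by 2.23 and Twist2 by 2.20. On day 0, 2 of the 12 were higher in KO cells. Of 8 markers of extraembryonic endoderm, Cubn was higher in KO EBs by 2.70. Without the first WT J1 array of day 7 Ttr was called lower as well (-2.32, adjusted p = 0.0178), and without the second Afp was called higher (1.704, adjusted p = 0.00725). In WT cells Ttr (4.62), Apob (2.21), Sox17 (1.48) and Apoa1 (1.48) rose. The first WT J1 array, the lowest of its group for 9 of the 10 sarcomere genes, was also the lowest WT array in the means of the endothelial (7.27), erythroid (10.30), fibroblast (7.59), endoderm (7.12) and smooth muscle (8.40) markers and the highest in that of the ESC markers (8.45).

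**Figure D4:**
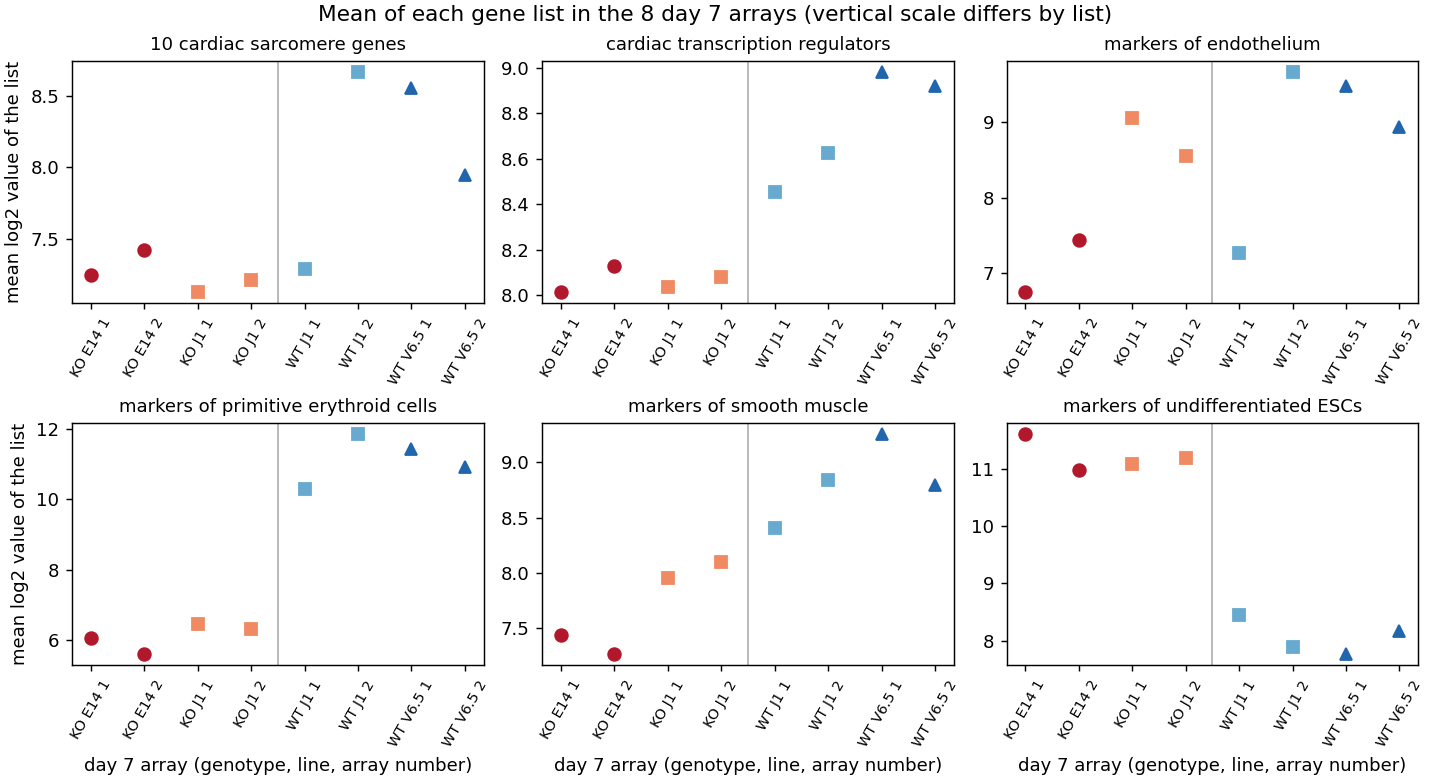
Mean log2 value (vertical axis, scale set for each list) of the 10 sarcomere genes, of the cardiac transcription regulators and of 4 marker lists in the 8 day 7 arrays, KO left of WT. The first WT J1 array is at 7.29 for the sarcomere genes, within the KO range of 7.12 to 7.42, and at 8.45 for the regulators, above the KO range of 8.01 to 8.13.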

How the data were processed

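RNA was measured on 24 arrays. Values as deposited are on the log2 scale, 1 for each probe set. According to the submitters' processing notes, the authors used Affymetrix Power Tools and RMA, which subtracts background, equalizes the distributions of the arrays by quantiles and so removes any change of total RNA. No tool version or genome build is given in the sources used here. Detection calls were not used here, and the number of arrays limits the precision.

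Of 35556 probe sets, 21789 had 1 gene symbol, 1621 had several and 12146 were not listed. The probe set with the highest mean stood for each of 19938 genes. Differences came from R 4.3.3 and its packages limma 3.58.1 and statmod 1.5.0, with a model of 6 genotype-by-day means with the line of a genotype as a random block (correlation 0.161, 18 residual degrees of freedom). Line comparisons used 12 means without a block (12 degrees of freedom). The script was tested on simulated data. The members and lists were chosen with earlier results of these data known.

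Genes named are all members, Eed, Acta2, the 6 most like the members' mean, and per list up to 4 called by size on day 7 (KO against WT) and 4 in WT (day 7 against 0), or the 2 largest where none was called on day 7. Hand2, Smarcd3, Gata5, Foxh1, Myom1, Des, Trdn, Cacna1g, Col3a1, Tek, Afp, the heart markers' values and the Actc1 with Acta2 comparison were added after values were seen. Alternatives averaged arrays, dropped the fold minimum, renormalized, added or removed blocks, filtered low values, averaged probe sets and left out arrays or lines. Leaving out either WT J1 day 7 array was added after the data were seen.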

Additional observations from a re-analysis of the deposited data

Results flagged for a closer look

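Of 60 groups of 4 arrays (10 genes, 2 genotypes and 3 days), 3 held an array far from the other 3, measured as the gap to its nearest neighbour over the range of the group, above Dixon's critical value at the 95% level. Chance gives about 1 in 20 such groups. The highest was Tnnc1 in WT cells on day 0, where the first WT J1 array, at 6.84, gave 0.939. Myh7 in KO cells on day 0 gave 0.898, from the first KO J1 array at 6.51. Actn2 in KO EBs on day 7 gave 0.842, from the second KO J1 array at 7.92. The first WT J1 array of day 7, of the pair that stood apart over all genes, was not among them, because the 4 WT arrays of that day were spread widely.

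The change to day 7 differed between the genotypes, by the interaction test, in 4 genes. From day 0 it was -1.52 for Actc1, -2.17 for Tnni1, -1.57 for Tnnt2 and -1.44 for Tnnc1, KO minus WT on the log2 scale. From day 3 it was -1.58 for Actc1, -2.23 for Tnni1, -1.45 for Tnnt2 and -1.78 for Tnnc1. All 8 calls were lost without KO J1 or without WT V6.5, and both of Tnni1 were lost with the arrays of a line and day averaged. That of Tnnt2 from day 3 was lost in 7 of the 8 fits that left out the arrays of 1 number of a line.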

How the results depend on the processing

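Actc1, Tnni1 and Tnnc1 kept their sign and their call in KO against WT EBs on day 7 under all 21 alternatives, with ranges of -2.13 to -1.48, -3.22 to -1.08 and -1.93 to -1.27. Not all of the 21 were able to remove a call. Dropping the fold minimum can only add calls. Averaging probe sets left the values of the members unchanged, as each had 1 probe set. Tnnt2 ranged from -1.99 to -1.14 and lost its call without the KO E14 arrays (-1.42) or the WT V6.5 arrays (-1.14). The uncalled Myl7 difference ranged from -0.25 to 0.59, so it has no settled sign. Ttn was dropped by the filter on low values. With 2 lines a genotype, leaving out a line leaves the genotype to 1 line.

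The count of the 10 genes called changed as follows. The shares of all genes given above hold for the main fit only. Counts over all genes at these settings are given above only for KO against WT on day 7 without the first or the second WT J1 array of day 7. The other counts cannot be read against a background. Without a fold minimum it was 6 for KO minus WT on day 7, with Myh7 and Ttn added, 8 for WT day 7 minus day 3, 7 for WT day 7 minus day 0, 1 for KO day 7 minus day 3 and minus day 0, and 5 for the interaction from day 3, 4 for J1 KO minus J1 WT and 5 for E14 KO minus V6.5 WT, with Myh7 added in these 3. With the arrays of a line and day averaged it was 1 for KO day 7 minus day 3 and minus day 0, and the Tnni1 interactions were lost (adjusted p = 0.0842 from day 0 and 0.0969 from day 3). With the filter on low values it was 1 for KO day 7 minus day 3. When arrays or lines were left out, the count ran from 3 to 5 for KO minus WT on day 7, from 0 to 1 on day 0, from 3 to 6 for WT day 7 minus day 3, from 3 to 5 for WT day 7 minus day 0, from 0 to 1 for KO day 7 minus day 3 and minus day 0, and from 0 to 5 for both interactions. For the lines it ran from 0 to 6 for J1 KO minus J1 WT, from 2 to 4 for E14 KO minus V6.5 WT, from 0 to 4 for V6.5 WT minus J1 WT and from 0 to 1 for E14 KO minus J1 KO. Each such fit holds fewer samples, and the groups of a fit share 1 spread. Without the first WT J1 array of day 7, Myl4 in KO cells stayed at 1.32 for day 7 minus day 3. Its SE fell from 0.44 to 0.31. For E14 KO minus J1 KO, Myl4 stayed at 1.33 and its SE fell from 0.63 to 0.34. Why the other counts moved was not tested. The Tnni1 call in J1 was also lost under renormalization (-1.05, adjusted p = 0.0681) and without the KO E14 arrays of either number (adjusted p = 0.0718). The Tnnt2 interaction from day 3 was lost in 7 of the 8 fits that left out the arrays of 1 number of a line (adjusted p = 0.0591 to 0.174), and from day 0 without either KO E14 number or either WT V6.5 number (adjusted p = 0.0540 to 0.0961). Without the WT V6.5 arrays numbered 1, Actc1 (adjusted p = 0.0649) and Tnnc1 (adjusted p = 0.0651) lost theirs from day 0, and without those numbered 2 Tnni1 lost its own from day 3 (adjusted p = 0.0615).

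Array numbers are shared between the groups. A replicate block on the number gave 4 genes called in KO against WT on day 7, as without it, and changed no other count of calls. Same-numbered KO and WT arrays of a day showed no shared deviation (median correlation -0.01, range -0.22 to 0.31 over 24 pairs). Pairs of other numbers gave a median of -0.03 (range -0.25 to 0.23). Deviations were taken from the mean of a genotype and day over both lines, so they also hold line differences. The check therefore cannot settle whether the numbers pair the samples.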
